A study of Mus musculus with 8 samples.

Results

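The S phase and DNA replication genes described here are 45 mouse genes listed by function. They encode the machinery that licenses and fires replication origins, copies DNA and supplies its nucleotides, together with cyclin E and E2F regulators of S phase entry. Each gene was read from the probe set whose platform annotation gives only that symbol, and where a gene had several, as 24 did, from the brightest of them, averaged over all 8 arrays. A probe set was found for 43 of the 45, and 42 had a mean of at least 6.87 on the log2 scale and were tested, among 8003 tested genes of 12393 with a probe set. Tyms, thymidylate synthase, lay below that limit, with 6.75, 6.56, 6.67 and 6.72 in mice A to D with PD-L1-overexpressing targets and 6.78, 6.70, 6.41 and 6.69 with PD-L1-depleted targets. Gins2, a subunit of the replicative helicase, and Chaf1a, of the chromatin assembly factor, had no probe set that names only them and were not analysed here.

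The cells were activated cytotoxic CD8+ T cells of OT-1 mice, whose T cells carry a transgenic receptor for a peptide of ovalbumin. There were 4 mice, A to D, and the T cells of each went both to PD-L1-overexpressing ID8 cells and to PD-L1-depleted ID8 cells, so each target has 4 arrays and each mouse 2. ID8 is a mouse ovarian cancer line. In both groups the targets carried the OVA peptide, 30 T cells were used per target cell for 4 h, and the T cells were then taken out magnetically. PD-L1 is the ligand of PD-1, an inhibitory receptor of T cells. The strain, age and sex of the mice, and whether each ID8 line is 1 clone, are not given in the sources used here. T cells without targets and targets with unaltered PD-L1 were not analysed here. All T cells carry the same transgenic receptor and were activated before they met the targets. A list of 8 T cell genes, read here as CD8 T cell markers, holds Cd8a and Cd8b1 and genes shared with other T cells. Its mean does not tell CD8 from other T cells. Of the 8 genes, 7 were tested, and their mean lay between 12.21 and 12.33 with PD-L1-overexpressing targets. With PD-L1-depleted targets it lay between 12.17 and 12.33.

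Activated CD8 T cells divide fast, and each division needs a complete copy of the genome. In G1, the origin recognition complex, Cdc6 and Cdt1 load the MCM helicase onto DNA, and Cdc7 kinase with cyclin E kinase then helps Cdc45, GINS and Mcm10 to switch it on. Polymerases alpha, delta and epsilon copy the strands with the sliding clamp PCNA, and most of these genes are transcribed at the boundary of G1 and S by E2F factors once RB proteins release them.

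The promoters were searched for the E2F motif, a feature that did not enter the choice of genes, with the letters TTTCCCGC, TTTCGCGC, TTTGCCGC and TTTGGCGC on both strands. RefSeq promoter windows of GRCm38.p6, each 300 bases from 250 before to 50 after a transcription start, were found for 37 of the 45 genes. At least 1 window held the motif in 14 of the 37 genes (37.8%), against 5.17% of the tested genes with a window and 2.6% of all genes in the table. In a list of other replication genes the share was close to that of the 37, with 13 of 39 genes (33.3%), and among 41 genes of G2 and mitosis with a window it was 7.32%. The CCAAT box, a motif frequent in cell cycle promoters, was found in 56.8% of the S phase genes, 42.9% of tested genes and 75.6% of the G2 and mitosis genes. Matches on opposite strands may overlap and were each counted, which concerns 2 of the 14 windows. A match is a string of letters and not a shown binding site. The windows printed here, in the direction of the gene and 5′ to 3′, belong to 5 of the genes that differed in mouse A, as described after the comparison of targets. Capitals mark the E2F motif in either orientation, and Tk1, with the largest difference of the 42, has none in its window.
Mcm6, chr1:128359656-128359955, minus strand: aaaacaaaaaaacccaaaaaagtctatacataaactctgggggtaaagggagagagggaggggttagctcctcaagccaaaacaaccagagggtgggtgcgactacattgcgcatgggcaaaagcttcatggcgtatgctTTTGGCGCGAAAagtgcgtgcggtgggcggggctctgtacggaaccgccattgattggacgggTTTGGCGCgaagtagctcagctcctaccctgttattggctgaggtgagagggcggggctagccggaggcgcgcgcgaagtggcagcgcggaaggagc
Mcm7, chr5:138171834-138172133, minus strand: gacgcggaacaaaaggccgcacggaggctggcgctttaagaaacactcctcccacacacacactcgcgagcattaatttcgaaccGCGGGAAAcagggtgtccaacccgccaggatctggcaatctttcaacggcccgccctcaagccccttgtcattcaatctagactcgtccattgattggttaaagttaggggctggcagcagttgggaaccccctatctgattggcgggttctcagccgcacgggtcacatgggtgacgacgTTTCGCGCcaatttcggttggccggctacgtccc
Pola1, chrX:93632106-93632405, minus strand: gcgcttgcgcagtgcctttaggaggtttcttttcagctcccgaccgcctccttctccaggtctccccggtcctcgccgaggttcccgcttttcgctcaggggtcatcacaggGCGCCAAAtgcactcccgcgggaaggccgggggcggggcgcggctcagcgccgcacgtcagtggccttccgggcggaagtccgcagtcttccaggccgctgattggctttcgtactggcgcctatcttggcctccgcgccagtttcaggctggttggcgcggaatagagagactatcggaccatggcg
Cdt1, chr8:122567765-122568064, plus strand: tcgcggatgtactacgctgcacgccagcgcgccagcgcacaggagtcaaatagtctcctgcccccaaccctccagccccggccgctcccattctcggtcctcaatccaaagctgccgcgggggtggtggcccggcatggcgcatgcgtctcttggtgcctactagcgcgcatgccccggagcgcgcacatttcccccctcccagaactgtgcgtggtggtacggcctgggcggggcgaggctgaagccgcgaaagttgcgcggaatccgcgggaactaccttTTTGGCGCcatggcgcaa
Tk1, chr11:117825965-117826264, minus strand: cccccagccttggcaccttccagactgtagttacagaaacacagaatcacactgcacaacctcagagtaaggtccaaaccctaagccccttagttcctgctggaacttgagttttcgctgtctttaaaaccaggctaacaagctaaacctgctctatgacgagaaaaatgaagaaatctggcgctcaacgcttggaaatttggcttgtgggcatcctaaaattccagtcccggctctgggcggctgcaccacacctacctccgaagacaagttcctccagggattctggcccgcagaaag
Mcm6 has 3 matches, 2 of them overlapping, Mcm7 has 2 in this window and 0 in a second one not shown, and Pola1 and Cdt1 have 1 each. In Cdt1 the match lies after the annotated start, and so does 1 of the 2 matches in Mcm7.

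The first comparison asked whether replication genes differ in T cells that met targets with much or with little of the ligand. No member passed in either direction. In mouse B most markers of the target cells ran the opposite way between targets from the other 3 mice, with values given after the genes; the labels of its arrays were kept as given, and the comparison is given with and without that mouse. With limma and the mouse as a block, 0 were higher and 0 lower (0.0% of all 8003 genes in each direction), and 0 had an unadjusted p under 0.05 (2.85% of all genes). The differences, overexpressing minus depleted, ran from -0.0865 to 0.0544 on the log2 scale, with 21 above and 21 below 0 and a median of -2.61e-05, against 0.00327 over all tested genes. For all 42 the 95% interval lay inside a 1.3-fold change either way. The widest bound, that of Cdc6, was 0.258 on the log2 scale, a 1.2-fold change. The number of arrays, 4 per target, limits this precision. In such unsorted samples, fewer cells in S phase and less RNA per cell cannot be told apart.

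E2f8, an atypical E2F that represses E2F target genes, had the smallest p of the 42. It read 7.69, 7.54, 7.69 and 7.58 in mice A to D with PD-L1-overexpressing targets, against 7.78, 7.60, 7.78 and 7.69 with PD-L1-depleted targets. The value was lower with PD-L1-overexpressing targets in each of the 4 mice, although the groups overlap, and the difference was -0.086 (SE 0.051, limma adjusted p = 0.9995). Dut, which removes dUTP, read 11.67, 11.74, 11.85 and 11.84 with PD-L1-overexpressing targets and 11.66, 11.74, 11.74 and 11.78 with PD-L1-depleted targets; they differed by 0.044 (SE 0.027). Rfc3, a subunit of the clamp loader, read 9.12, 9.05, 9.21 and 9.20 with PD-L1-overexpressing targets and 9.07, 9.01, 9.14 and 9.15 with PD-L1-depleted targets; they differed by 0.054 (SE 0.037). Dut and Rfc3 were the 2 members higher in all 4 mice (4.76%, against 5.84% of all genes), and E2f8 the only one lower in all 4 (2.38%, against 4.69%). These shares lie at or below those of all genes. Mcm10, which activates the helicase, differed by -0.068 (SE 0.053), Tk1, the thymidine salvage kinase, by -0.047 (SE 0.041) and the helicase subunit Mcm6 by 0.037 (SE 0.033).

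Within single mice most of the genes lay on the same side, least so in mouse D, and mouse B lay opposite to A and C. In mouse B, 41 of 42 genes were higher with PD-L1-overexpressing targets (97.6%, against 61.3% of all genes), with a median difference of 0.0797 (all genes 0.028). In mouse A 14 were higher (33.3%, against 50.5%) and the median was -0.0385, and in mouse C 6 were higher (14.3%, against 39.8%) and the median was -0.0576. In mouse D 18 were higher (42.9%, against 53.1%) and the median, -0.00669, was near 0. Under median centring of the arrays the median of mouse D was 0.0102 and under quantile normalisation -0.0271, that of mouse A was -0.0633 under quantile normalisation, and the direction in mice A, B and C was the same under median centring and quantile normalisation, both tried on these counts after the data had been seen. With 1 array per mouse and target, these differences have no replicate check.

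**Figure D1:**
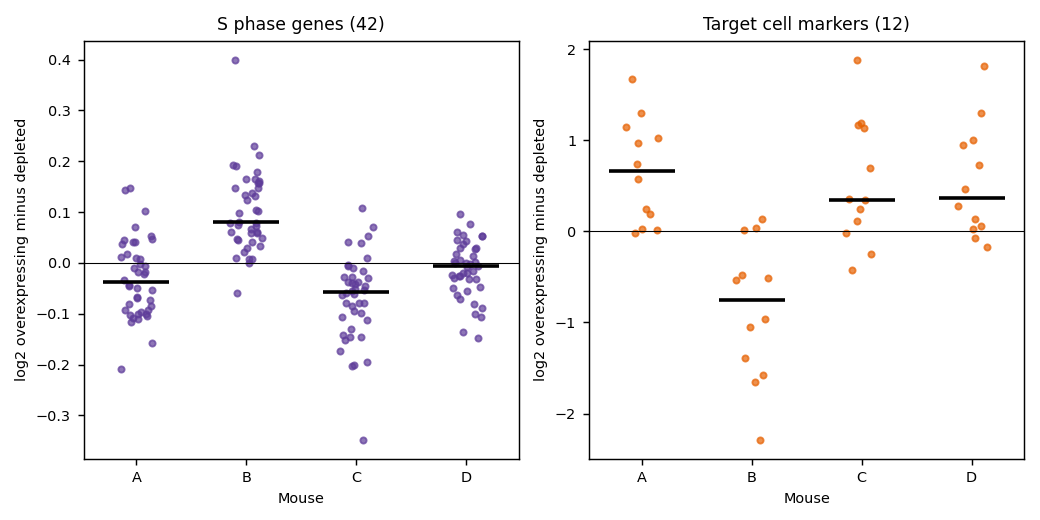
Difference between targets in each mouse, PD-L1-overexpressing minus PD-L1-depleted, in log2 units (vertical axes, of different range), for the 42 S phase genes (left) and the 12 tested target cell markers (right). Each point is a gene and each bar the median of the list. The S phase genes have medians of -0.0385, 0.0797, -0.0576 and -0.00669 in mice A to D, and the markers have medians of 0.662, -0.752, 0.35 and 0.371.

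Cdc6, which loads the helicase at origins, had the largest difference within a mouse. It read 8.74, 8.75, 8.54 and 8.71 in mice A to D with PD-L1-overexpressing targets, against 8.84, 8.35, 8.88 and 8.80 with PD-L1-depleted targets. The array of mouse B with PD-L1-depleted targets was the lowest of the 8 and lay 0.40 below its partner, while in mice A, C and D the array with PD-L1-depleted targets was the higher. Counted by sign alone, 13 of the 42 genes (31.0%, against 13.4% of all genes) had lower values with PD-L1-overexpressing targets in A, C and D and a higher one in B. The opposite pattern was seen in 0 (against 8.96%). These 13 were Mcm7, Mcm10, Rrm2, Tk1, Cdc6, Gins1, Orc6, Pold1, Pole2, Rfc5, Rpa1, Fen1 and E2f1, which come from most steps of replication. Their differences vary in size, and in mouse B those of Rrm2 and Orc6 were only 0.0006 and 0.0092. For Tk1, Gins1 and Pold1 the array of mouse B with PD-L1-depleted targets was not the lowest of the 8. Fen1, the nuclease that trims Okazaki fragments, read 11.61, 11.59, 11.77 and 11.63 with PD-L1-overexpressing targets, against 11.77, 11.42, 11.81 and 11.71 with PD-L1-depleted targets.

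The array of mouse B with PD-L1-depleted targets was the lowest of the 8 for 26 of the 42 genes (61.9%, against 20.5% of all genes). It was the lowest for 30 after quantile normalisation and for 24 after median centring. With both arrays of mouse B left out, 34 of the 42 differences were below 0, against 54.5% of all genes, with a median of -0.0278 (all genes -0.00575). Still 0 of the 42 passed (limma adjusted p from 0.121 to 0.999), where 1.9% of all genes were higher and 0.3% lower. The nearest were Cdc6, with -0.18 (SE 0.055, limma adjusted p = 0.121), and Fen1, with -0.094 (SE 0.030, limma adjusted p = 0.154).

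Most of the tested markers of the target cells ran the opposite way between targets in mouse B from mice A, C and D. Of 22 listed markers of ID8 or mesothelial cells, 20 had a probe set and 12 were tested. The mean over those 12 differed between targets by 0.658, 0.538 and 0.544 in mice A, C and D, higher with PD-L1-overexpressing cells, and by -0.854 in mouse B, lower with them. The summed level of the 20, on a linear scale, was 5242, 3860, 7226 and 6680 in mice A to D with PD-L1-overexpressing targets and 3443, 6823, 4833 and 4300 with PD-L1-depleted targets. Of the 12, 8 were higher with PD-L1-overexpressing targets in A, C and D and lower in B (against 8.96% of all genes), and Krt8, Cav1, Epcam and Lum were not. Upk3b, a mesothelial surface protein with the widest such differences, read 9.28, 7.50, 9.95 and 9.78 with PD-L1-overexpressing targets, against 7.61, 9.79, 8.07 and 7.96 with PD-L1-depleted targets. The collagen genes Col1a1 and Col3a1 and the keratin Krt7 lay below the limit for testing, as did 5 others. The mean of the 42 S phase genes went the other way, with differences of -0.0308, 0.1013, -0.0695 and -0.0129 in mice A to D. The part of target cell RNA in these differences was not tested. The mean of the CD8 T cell markers differed between targets by 0.0348, 0.0074, -0.0224 and 0.0089 in mice A to D.

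**Figure D2:**
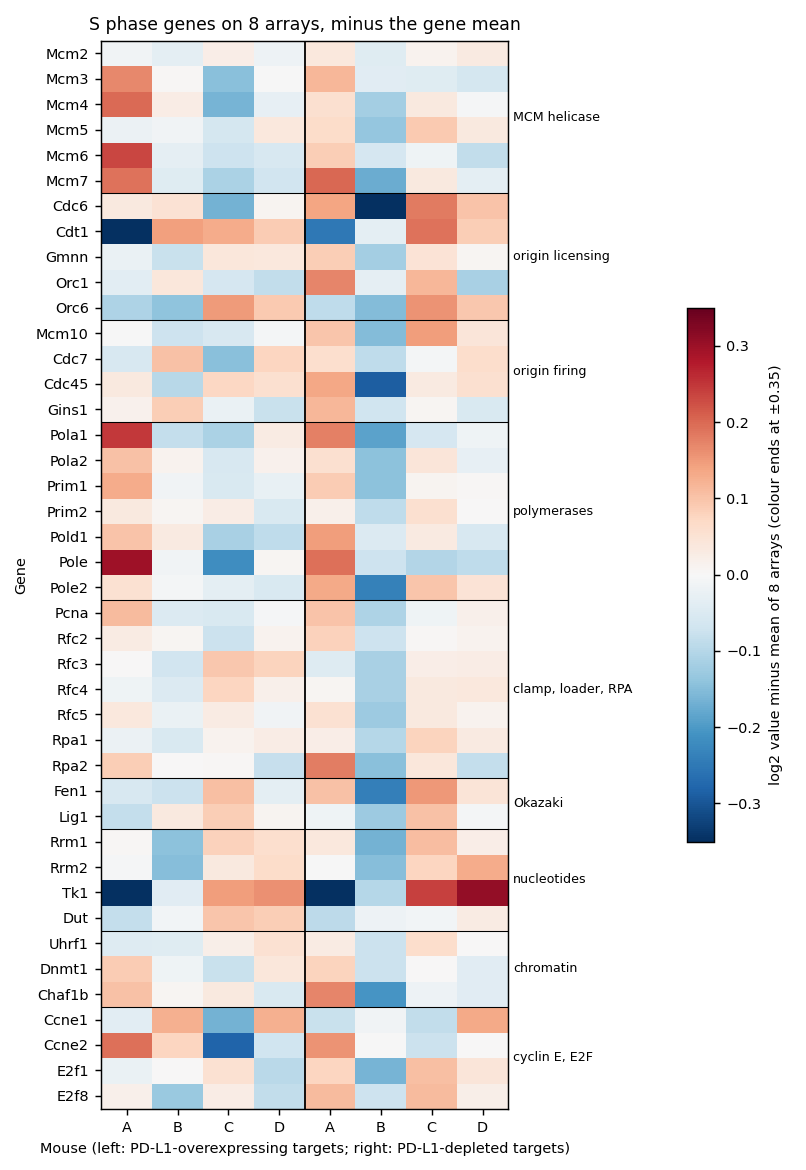
Log2 value minus the gene's mean over 8 arrays (colour, ending at 0.35 either way) for the 42 tested genes, grouped by role, with PD-L1-overexpressing targets left of the line and PD-L1-depleted targets right of it. Tk1 and Cdt1 are blue in both columns of mouse A, where Pole, Pola1 and Mcm7 are red, and the column of mouse B with PD-L1-depleted targets is the lowest of the 8 for 26 genes.

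The second comparison asked how far the mice differ. Each mouse was set against the mean of the other 3, with the target as covariate, so a difference is judged against the spread between co-cultures of cells of the same animal. The 4 contrasts share arrays, and their calls are not independent of each other. By the moderated F test of limma, 12 of the 42 genes differed between mice (28.6%), a share close to the 29.3% of all tested genes. The 12 were Mcm3, Mcm6, Mcm7, Pcna, Rrm1, Rrm2, Tk1, Cdt1, Orc6, Pola1, Pole and Fen1. That share is not read as particular to replication genes, and the values that follow say which genes differed in which animal. With both arrays of mouse A left out the F test called 5 of the 42, and with those of mouse B left out it called 18. Counts between mice with a mouse left out, here and below, have no matching share of all genes beside them. They are not read as particular to replication genes.

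**Figure D3:**
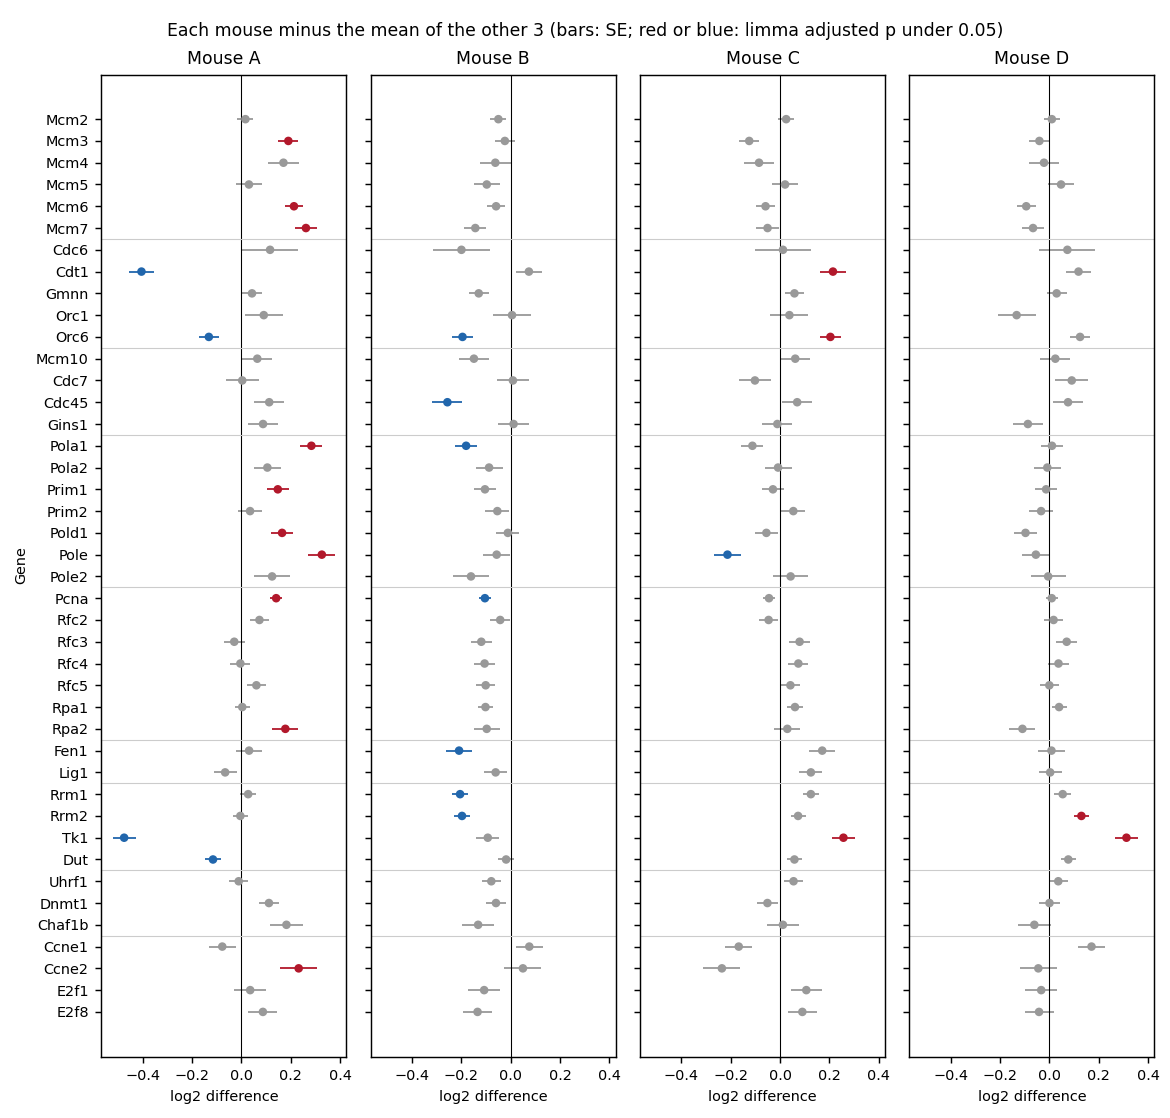
Log2 difference of each mouse from the mean of the other 3 (points) with its SE (bars) for the 42 genes, ordered by role from the helicase at the top to cyclin E and E2F at the bottom. Red and blue points passed the limma test, 10 higher and 4 lower in mouse A, 0 and 7 in mouse B, 3 and 1 in mouse C, and 2 and 0 in mouse D.

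In mouse A, 3 of 6 MCM helicase genes and 4 of 7 polymerase and primase genes were higher, and Tk1, Cdt1, Orc6 and Dut were lower. In all, 10 of 42 were higher (23.8%, against 18.1% of all genes) and 4 lower (9.52%, against 12.7%), with a median of 0.0685 (all genes 0.0224). These shares are not far from those of all genes, and without mouse D the counts were 6 and 2. Tk1, whose protein rises in S phase, was the gene that differed most. With PD-L1-overexpressing targets it read 9.89 in mouse A, against 10.21, 10.39 and 10.41 in mice B, C and D, and with PD-L1-depleted targets it read 9.89 in mouse A, against 10.15, 10.49 and 10.55. Both arrays of mouse A lay below the other 6, and the difference was -0.48 (SE 0.047, limma adjusted p = 0.000106), a 1.39-fold lower level. Cdt1, the licensing factor, read 10.56 in mouse A with PD-L1-overexpressing targets, against 11.06, 11.05 and 11.00 in mice B, C and D, and 10.66 in mouse A with PD-L1-depleted targets, against 10.88, 11.10 and 11.00. Again both arrays of mouse A were the lowest, with a difference of -0.41 (SE 0.052, limma adjusted p = 0.00052), or 1.32-fold, and a further Cdt1 probe set gave -0.35. Orc6, of the origin recognition complex, was lower with -0.13 and Dut with -0.12. Without mouse D neither passed, with -0.102 for Orc6 and -0.101 for Dut, and without mouse C Orc6 gave -0.072. Averaged over its probe sets Dut gave -0.023 and did not pass.

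The helicase subunits Mcm3, Mcm6 and Mcm7 were higher in mouse A, by 0.19, 0.21 and 0.26, and Mcm2, Mcm4 and Mcm5 did not pass, with 0.016, 0.17 and 0.030. Mcm7 read 12.49 in mouse A with PD-L1-overexpressing targets, against 12.26, 12.19 and 12.23 in mice B, C and D, and 12.50 in mouse A with PD-L1-depleted targets, against 12.12, 12.33 and 12.26. The 2 arrays of mouse A lay above the other 6 (limma adjusted p = 0.00259), and 3 further probe sets of Mcm7 gave 0.27, 0.23 and 0.13. Mcm6 read 12.26 in mouse A with PD-L1-overexpressing targets, against 11.99, 11.95 and 11.97, and 12.11 in mouse A with PD-L1-depleted targets, against 11.97, 12.01 and 11.94 (limma adjusted p = 0.00304). Its other probe set gave 0.0025, so the difference of Mcm6 rests on 1 probe set. Mcm3 read 11.15 in mouse A with PD-L1-overexpressing targets, against 10.98, 10.83 and 10.98, and 11.10 in mouse A with PD-L1-depleted targets, against 10.94, 10.94 and 10.92 (limma adjusted p = 0.00778). For Mcm3, 3 other probe sets gave 0.15, 0.19 and 0.25, and 1 dim probe set, with a mean of 7.62, gave -0.18 without passing.

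Of the 7 polymerase and primase genes, 4 were higher in mouse A and 0 lower, where 18.1% of all genes were higher and 12.7% lower. Pole, the catalytic subunit of polymerase epsilon, which copies the leading strand, read 9.38 in mouse A with PD-L1-overexpressing targets, against 9.07, 8.87 and 9.09 in mice B, C and D, and 9.28 in mouse A with PD-L1-depleted targets, against 9.01, 8.98 and 8.99. Its 2 arrays in mouse A were the highest of the 8, with a difference of 0.33 (SE 0.054, limma adjusted p = 0.00221). Pola1, the catalytic subunit of polymerase alpha, which starts each new strand, read 10.01 in mouse A with PD-L1-overexpressing targets, against 9.67, 9.65 and 9.79, and 9.93 in mouse A with PD-L1-depleted targets, against 9.57, 9.70 and 9.74. The difference was 0.28 (SE 0.044, limma adjusted p = 0.00153). Prim1, the catalytic primase subunit, was higher by 0.15 and Pold1, the catalytic subunit of polymerase delta, by 0.16. Pcna, the sliding clamp, read 13.54 in mouse A with PD-L1-overexpressing targets, against 13.38, 13.38 and 13.43, and 13.53 in mouse A with PD-L1-depleted targets, against 13.32, 13.42 and 13.45, and differed by 0.14 (SE 0.024, limma adjusted p = 0.00247). Both arrays of mouse A were again the highest. Rpa2, a subunit of the protein that coats single-stranded DNA, was higher by 0.18 and the cyclin gene Ccne2 by 0.23. Without mouse D the differences of Prim1, Pold1, Rpa2 and Ccne2 were 0.16, 0.15, 0.16 and 0.24, and none of these 4 passed; without mouse C, Ccne2 gave 0.17 and did not pass.

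In mouse A 16 of the 42 genes had both arrays above the other 6 (38.1%, against 22.3% of all genes), and 3 had both below (7.14%, against 13.9%), namely Tk1, Dut and Cdt1. The mean of the 7 tested CD8 T cell markers was 12.21 and 12.17 in mouse A, against 12.31 to 12.33 on the arrays of the others. Of the 7, 4 were lower in mouse A (57.1%, against 12.7% of all genes) and 0 higher (against 18.1%). Cd247 differed by -0.28, Cd3g by -0.21 and Cd8a by -0.17 in mouse A. The only tested B cell marker, Ighm, differed by -0.65 in mouse A, and 8 other B cell markers lay below the limit for testing. Of 3 tested macrophage or dendritic cell markers Cd68 was lower with -0.34, and of the 12 target cell markers Krt8 was lower with -0.47 and Cav1 with -0.34. Of 4 tested markers of CD4 or regulatory T cells, Il2ra was higher by 0.13. Cd4 gave -0.093 and Ctla4 0.033 there without passing, and Foxp3 lay below the limit for testing. The part of other cells in the differences between mice was not tested. Of the 10 genes higher in mouse A, 8 had a promoter window and 5 of these held the E2F motif, namely Mcm3, Mcm6, Mcm7, Pola1 and Pold1. Of the 4 lower genes, all had a window and 1, Cdt1, held it. In mouse B, all 7 lower genes had a window and 1, Pola1, held it. Of all 37 members with a window, 37.8% held it.

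**Figure D4:**
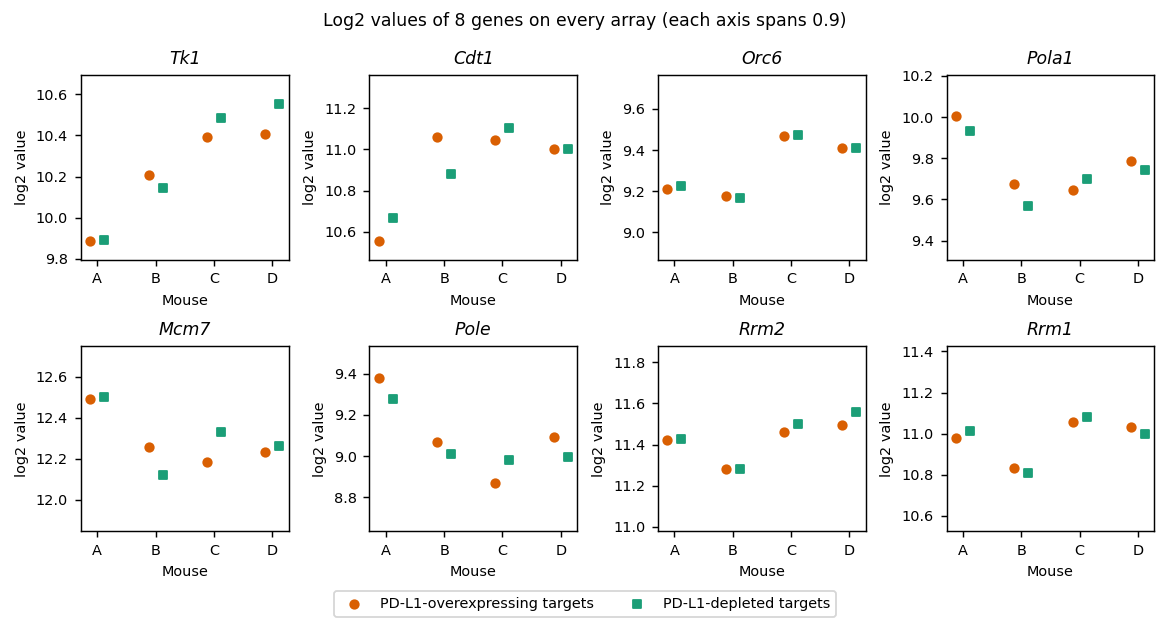
Log2 values of 8 genes on every array, by mouse (horizontal axes), with PD-L1-overexpressing targets as circles and PD-L1-depleted targets as squares; each vertical axis spans the same range, but levels of different genes are not comparable. Tk1 and Cdt1 are lowest in mouse A, Pola1, Mcm7 and Pole are highest there, and Rrm1, Rrm2 and Orc6 are lowest in mouse B.

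Mouse B had lower levels of replication genes from several steps. In mouse B 7 of 42 were lower (16.7%, against 2.96% of all genes) and 0 higher (against 6.3%), with a median of -0.0975 (all genes -0.00646). Of the 42 differences, 6 were above 0 (14.3%, against 47.3% of all genes), and 9 after median centring (21.4%, against 57.8%). The largest changes relative to their error were those of both subunits of ribonucleotide reductase, the enzyme that makes deoxynucleotides. Rrm2 read 11.28 in mouse B with PD-L1-overexpressing targets, against 11.42, 11.46 and 11.49 in mice A, C and D, and 11.28 in mouse B with PD-L1-depleted targets, against 11.43, 11.50 and 11.56. The 2 arrays of mouse B were below the other 6, with a difference of -0.20 (SE 0.030, limma adjusted p = 0.00505). Rrm1 read 10.83 in mouse B with PD-L1-overexpressing targets, against 10.98, 11.06 and 11.03, and 10.81 in mouse B with PD-L1-depleted targets, against 11.01, 11.08 and 11.00, and differed by -0.21 (SE 0.033, limma adjusted p = 0.00652). Further probe sets gave -0.23 for Rrm1, and -0.33 and -0.17 for Rrm2, the last without passing (limma adjusted p = 0.0793).

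Cdc45, part of the active helicase, read 8.65 in mouse B with PD-L1-overexpressing targets, against 8.78, 8.82 and 8.81 in mice A, C and D, and 8.46 in mouse B with PD-L1-depleted targets, against 8.88, 8.78 and 8.81. Its difference was -0.26 (SE 0.061, limma adjusted p = 0.0322), and the array with PD-L1-depleted targets lay lower than its partner. Orc6 read 9.17 in mouse B with both targets, against 9.21, 9.47 and 9.41 with PD-L1-overexpressing targets and 9.23, 9.47 and 9.41 with PD-L1-depleted targets. Orc6 differed by -0.20 (limma adjusted p = 0.0204), and mouse A, the next lowest, was near it. Fen1 was lower with -0.21 (limma adjusted p = 0.0407), and its other probe set gave -0.080. Pola1 was lower with -0.18 (limma adjusted p = 0.036) and Pcna with -0.10 (limma adjusted p = 0.028). The count of 7 was 2, Rrm1 and Rrm2, without mouse D, where Cdc45, Orc6, Fen1, Pola1 and Pcna gave -0.261, -0.174, -0.233, -0.200 and -0.115. It was 5 without A, where Cdc45, Pola1 and Pcna were lost with -0.247, -0.0975 and -0.0652 and Tk1 was gained with -0.283. It was 5 without C, where Cdc45, Orc6 and Fen1 were lost with -0.263, -0.144 and -0.172 and Mcm7 was gained with -0.181. In mouse B, 12 genes had both arrays below the other 6 (28.6%, against 7.87% of all genes), and 0 had both above (against 8.28%). Besides Rrm1, Rrm2, Cdc45, Orc6 and Fen1 these were Mcm2, Mcm10, Gmnn, which encodes the Cdt1 inhibitor geminin, the clamp loader genes Rfc3, Rfc4 and Rfc5, and Rpa1.

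Part of the difference of mouse B lay on 1 array. Among the 4 arrays with PD-L1-overexpressing targets, mouse B was the lowest for 13 of 42 genes (31.0%, against 19.4% of all genes), and mouse C for 17 (40.5%, against 33.4%). Among the 4 arrays with PD-L1-depleted targets, mouse B was the lowest for 32 of 42 (76.2%, against 33.7%). That array also had a target marker mean of 8.73, against 7.75, 8.27 and 8.15 in mice A, C and D with PD-L1-depleted targets. With PD-L1-overexpressing targets the marker mean of mouse B was 7.87, against 8.41, 8.80 and 8.69. Rrm1, Rrm2 and Orc6 were lowest in mouse B with either target. Between mice, Lum was higher in mouse B by 0.55, Epcam by 0.41 and Ighm by 0.18, and the other 10 target cell markers did not pass. Of 7 tested CD8 T cell markers, Cd247 was higher in mouse B by 0.15. Of 4 tested markers of CD4 or regulatory T cells, Ctla4 was higher there by 0.18. Cd4 gave -0.084 and Zbtb7b -0.017 in that mouse without passing.

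Mice C and D stood out in few of the genes. In mouse C 3 were higher (7.14%, against 3.09% of all genes), and 1 was lower (2.38%, against 5.35%). Tk1 was higher by 0.26 (limma adjusted p = 0.0121), Cdt1 by 0.21 (0.0386) and Orc6 by 0.20 (0.0187), and Pole was lower with -0.21 (0.0450). In mouse D 2 were higher (4.76%, against 4.56%), and 0 lower (against 4.09%). Tk1 was higher by 0.31 (limma adjusted p = 0.00414) and Rrm2 by 0.13 (0.0318). The medians were 0.0334 in mouse C (all genes -0.0175) and 0.00868 in mouse D (all genes 0.00088). After quantile normalisation that of mouse C was 0.0704 (all genes 0.00736), and after median centring that of mouse D was -0.0187 (all genes -0.0265). The mean of the others holds mouse A, in which Tk1 and Cdt1 were lowest and Pole highest. In mouse C the marker genes Cd68, Cav1 and Cd3g were also higher, by 0.47, 0.36 and 0.14. Lum was lower there with -0.43 and Ctla4 with -0.088. In mouse D the marker genes Ighm, Cd247 and Cd8a were higher, by 0.45, 0.18 and 0.16. Epcam was lower there with -0.68 and Ctla4 with -0.12. Cd4 did not pass in mouse C or D, with 0.095 and 0.082. Without mouse A, all 4 calls in mouse C were lost, with Tk1 at 0.11, Cdt1 at 0.089, Orc6 at 0.18 and Pole at -0.12, and so were both in mouse D, with Tk1 at 0.17 and Rrm2 at 0.14. Without mouse B, Rrm2 gave 0.072 in mouse D and did not pass, and the counts were 5 higher and 7 lower in mouse C and 3 and 4 in mouse D.

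Of the 42 genes, 18 passed in at least 1 mouse and 24 in none, and the differences of the 24 ran from -0.2 to 0.182. The share of all genes that passed in at least 1 mouse was not counted. The 18 are thus not read as particular to replication genes. The 24 include the helicase subunits Mcm2, Mcm4 and Mcm5. On the chosen probe sets Mcm2 had the narrowest range of the 42 over the 8 arrays. It ran from 11.11 to 11.17 with PD-L1-overexpressing targets and from 11.10 to 11.18 with PD-L1-depleted targets. The other Mcm2 probe set ran from 10.76 to 10.94 and from 10.73 to 10.83, and gave 0.11 in mouse A without passing. Among the licensing and firing genes the 24 include Cdc6, Gmnn, Orc1, Mcm10, Gins1 and Cdc7, the kinase that triggers firing. Gmnn lay between 10.58 and 10.70 with PD-L1-overexpressing targets and between 10.54 and 10.75 with PD-L1-depleted targets. The polymerase and primase subunits Pola2, Pole2 and Prim2, the single-strand binding gene Rpa1 and all 4 clamp loader genes, Rfc2 to Rfc5, also belong here. Lig1, the ligase that seals Okazaki fragments, lay between 10.57 and 10.74 with PD-L1-overexpressing targets and between 10.52 and 10.75 with PD-L1-depleted targets. Dnmt1 and its guide Uhrf1, which copy DNA methylation, did not pass, and Dnmt1 lay between 10.21 and 10.37 with PD-L1-overexpressing targets and between 10.21 and 10.36 with PD-L1-depleted targets. Chaf1b, which helps to deposit histones behind the fork, lay between 8.08 and 8.23 with PD-L1-overexpressing targets and between 7.92 and 8.30 with PD-L1-depleted targets. Ccne1, the gene of cyclin E1, differed by -0.17 in mouse C and 0.17 in mouse D, with limma adjusted p = 0.0922 and 0.0892. Ccne2 differed by -0.24 in mouse C (limma adjusted p = 0.0901). E2f1, which activates many of these genes, differed by -0.11 in mouse B and 0.11 in mouse C without passing.

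Other genes of replication and of the later cell cycle were read from lists chosen by function. Of 37 further replication genes tested, 13 were higher (35.1%, against 18.1% of all genes) and 1 lower (2.7%, against 12.7%) in mouse A. Ung, the uracil glycosylase, was higher there by 0.41 and Pold2, a subunit of polymerase delta, by 0.26. In mouse B 1 was higher (2.7%, against 6.3%) and 6 lower (16.2%, against 2.96%), with the S and G2 cyclin gene Ccna2 at -0.33. In mouse C 2 were higher (5.41%, against 3.09% of all genes) and 1 lower (2.7%, against 5.35%). In mouse D 0 were higher (against 4.56%) and 2 lower (5.41%, against 4.09%). Of 43 G2 and mitosis genes tested, 7 were higher (16.3%, against 18.1% of all genes) and 2 lower (4.65%, against 12.7%) in mouse A. Mouse B had 0 higher (against 6.3%) and 23 lower (53.5%, against 2.96%). Mouse C had 14 higher (32.6%, against 3.09%) and 0 lower (against 5.35%). Mouse D had 1 higher (2.33%, against 4.56%) and 0 lower (against 4.09%). The median of the G2 and mitosis genes was -0.204 in mouse B and 0.147 in mouse C. Ube2c, a ubiquitin enzyme of mitotic exit, differed by -0.28 in mouse B and 0.26 in mouse C, and Prc1, of the spindle midzone, by -0.29 and 0.32. In mouse B the share called lower was 16.7% of S phase genes, 16.2% of the further replication genes and 53.5% of the G2 and mitosis genes. The share of all genes called lower in mouse B was 2.96%. In mouse C 32.6% of the G2 and mitosis genes were called higher, against 3.09% of all genes. In mouse A the shares called higher were 23.8%, 35.1% and 16.3%, against 18.1% of all genes. Between targets 0 genes of either list passed.

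**Figure D5:**
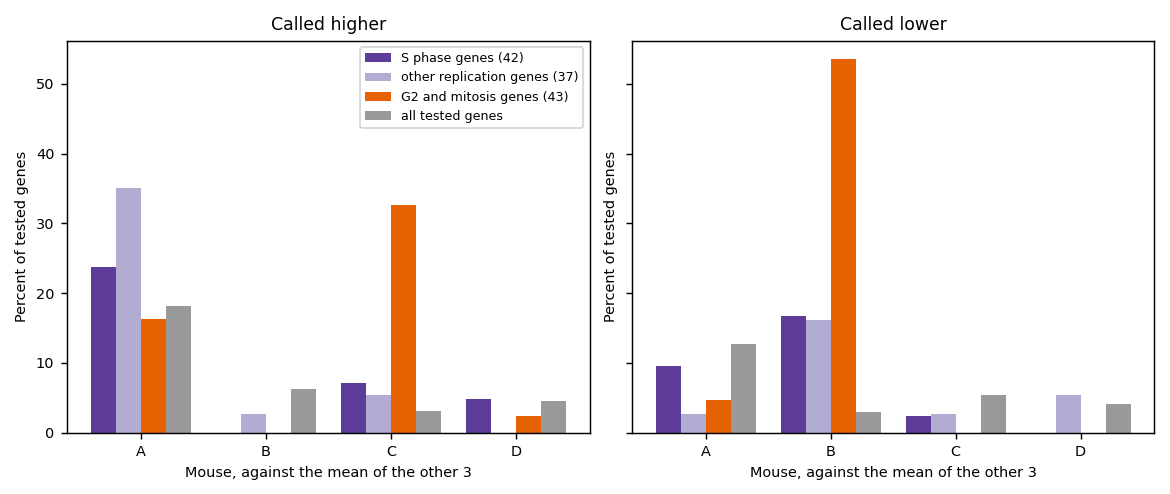
Percent of tested genes called higher (left) and lower (right) by limma in each mouse against the mean of the other 3, for the 42 S phase genes, 37 other replication genes, 43 G2 and mitosis genes and all 8003 tested genes. In mouse B 53.5% of G2 and mitosis genes and 16.7% of S phase genes were called lower, against 2.96% of all genes.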

How the data were processed

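RNA was measured on 8 arrays of a 3' expression platform with 22690 probe sets, 1 array per mouse and target. The authors deposited 1 log2 value per probe set and array. That they are log2 values was judged from their range, from 3.60 to 15.24, and the summarisation and normalisation were not given in the sources used here. Sorted values of the 8 arrays lay within 0.167 at the same rank, so a shift common to most genes would not show. Pairs of arrays correlated at 0.994 to 0.998. The 3' minus 5' difference of control probe sets was -0.11 to -0.08 for Gapdh, 0.17 to 0.24 for Actb and 2.31 to 2.54 for Tfrc. In mouse B Tfrc gave 2.31 (overexpressing) and 2.52 (depleted). In the same order it gave 2.54 and 2.41 in mouse A, 2.50 and 2.42 in mouse C, and 2.39 and 2.37 in mouse D. The part of RNA quality in the differences between arrays was not tested. The table held 0 columns of other samples.

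Symbols came from the platform annotation, which names 1 gene for 20380 of 22626 non-control probe sets, several for 691 and none for 1555. The tests used limma 3.58.1 in R 4.3.3 (lmFit, eBayes with trend, two-sided) on genes whose mean reached 6.87, the 40th percentile of the probe set means, with Benjamini-Hochberg adjustment over 8003 genes and a threshold of 0.05. Targets were compared with the mouse as a block, since the series design divides each animal's cells between targets and titles name the mouse. After the group means were taken off, the 2 arrays of a mouse correlated at 0.824, 0.159, 0.610 and 0.635 in mice A to D. P-values between mice measure only the spread between 2 co-cultures of each animal.

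All members are accounted for by role. Those given in full are the 6 with the smallest p between targets, up to 8 called per mouse with the smallest p, and any whose further probe set differs in direction; of other lists at most 3 genes per comparison are named. Cdc6 was chosen after its values were seen. The members and lists were chosen with earlier results of these data known. The steps were tested on simulated data. Alternatives were no mouse block, a random block (statmod 1.5.0), no target term, quantile normalisation, arrays centred on their median, 2 other filters, averaged probe sets, eBayes with robust variances or with no trend, and leaving out each mouse.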

Additional observations from a re-analysis of the deposited data

Results flagged for a closer look

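Single arrays standing apart within a group of 4 were looked for in 21 genes under both targets, 42 groups of values, by the gap to the nearest other array as a share of the group's range. In 4 groups that share was over the 95% critical value of Dixon's test. The 21 genes are those the report names for their p between targets or in a mouse, so a mouse that differs enters their choice; the chance rate of about 1 in 20 holds for genes not chosen in this way, and the count is a description. With PD-L1-overexpressing targets Mcm6 was highest in mouse A, at 12.26, against 11.95 to 11.99 in the other mice (share 0.863). With the same targets Cdt1 was lowest in mouse A, at 10.56, against 11.00 to 11.06 (share 0.89). With PD-L1-depleted targets Pole was highest in mouse A, at 9.28, against 8.98 to 9.01 (share 0.895). With the same targets Mcm3 was highest in mouse A, at 11.10, against 10.92 to 10.94 (share 0.884).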

How the results depend on the processing

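The target comparison called 0 of 42 genes under every alternative run, including the fit with no replicate block, which ignores the pairing by mouse (0 of 42), a random block, median centring and quantile normalisation, both other filters, the mean of probe sets, either other variance model, and without each mouse in turn. The count called by the F test between mice was 12, and it was 7 with eBayes without a trend and 5 to 18 when a mouse was left out. Genes lower in mouse B numbered 7, and 3 without a trend. The 1 gene lower in mouse C, Pole, was lost (count 0) with quantile normalisation, with no filter and without a trend. The 2 genes higher in mouse D became 1 with median centring, with the mean of probe sets and without a trend. Leaving out a mouse gave 6 to 12 higher and 2 to 5 lower in A, 0 higher and 2 to 5 lower in B, 0 to 5 higher and 0 to 7 lower in C, and 0 to 3 higher and 0 to 4 lower in D. The lowest counts came without D for mice A and B and without A for C and D. Without mouse B the counts in mice C and D were 5 higher and 7 lower, and 3 higher and 4 lower. Of 296 alternatives for the 27 calls of a gene in a mouse, 245 kept direction and call, 51 kept the direction but not the call, and 0 turned it. With the mean of probe sets Mcm3 and Mcm6 in mouse A gave adjusted p of 0.0517 and 0.0909 in limma. The causes of these changes were not tested, and leaving out a mouse also leaves fewer arrays. Depth is not defined for arrays, and only Tyms lay below the limit for testing.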

Other observations

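Inhibitors of cyclin-dependent kinases hold cells before S phase, and several differed between mice. In mouse A, Cdkn2a, whose locus encodes p16 and p19ARF, was lower with -1.18 (SE 0.064, limma adjusted p = 2.83e-06). Cdkn2b, which encodes p15, was lower with -1.004 (SE 0.079, limma adjusted p = 2.42e-05). Cdkn1a, the p53 target that encodes p21, was higher by 0.28 (SE 0.025, limma adjusted p = 6.45e-05). In all, 1 of 6 tested inhibitors was higher (16.7%, against 18.1% of all tested genes) and 4 lower (66.7%, against 12.7%) in mouse A. In mouse B, Cdkn1b, which encodes p27, was higher by 0.26 (SE 0.040, limma adjusted p = 0.00467), and 0 were lower. In mice C and D, Cdkn2a was higher by 0.64 and 0.63, Cdkn2b by 0.41 and 0.42, and Cdkn1a was lower with -0.11 and -0.20. Either mouse thus had 2 of 6 higher (33.3%) and 1 lower (16.7%). The shares of all genes were 3.09% and 5.35% in mouse C and 4.56% and 4.09% in mouse D. These contrasts share arrays, so a low value in mouse A enters the differences of C and D.

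Of 7 other genes of the E2F and RB family tested, 1 was called in any mouse. That gene was Rbl2, which encodes the pocket protein p130 and was lower in mouse A with -0.15 (SE 0.045, limma adjusted p = 0.0353). The share lower in mouse A, 14.3% of the 7, is close to the 12.7% of all genes. It is not read as particular to the family. Between targets 0 of the kinase inhibitors and 0 of the E2F and RB genes passed.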
